A study of Mus musculus with 4 samples.

Results

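The genes described here encode receptor chains of the common gamma chain cytokine family, the related IL-13 receptor chains, and the cytokine IL-15. They were Il2ra, Il2rb, Il2rg, Il4ra, Il7r, Il15, Il15ra, Il13ra1 and Il13ra2, and each was measured by the array probe sets annotated with it as their only symbol. Of these 9 genes, 8 were measured, by 18 of the 22626 probe sets tested; all named probe sets together represented 12393 genes. Il2rg, the common gamma chain itself, had 0 probe sets under its name in the annotation used, and its level was not analysed here.

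RNA was measured on 4 Affymetrix mouse expression arrays. There were 2 arrays of NKT-modulated dendritic cells (DC) and 2 arrays of immature DC, all from bone marrow DC of the C57BL/6 strain, with RNA taken from CD11c cells per the design text. NKT cells are T lymphocytes that recognise lipids on CD1d; how they were applied to the DC, for how long, and whether arrays came from separate cultures or animals, the labels do not say. What the p-values capture is thus array-to-array spread, possibly of technical origin only.

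As background, cytokines of this family act through receptors that pair a private chain with the shared gamma chain, which carries the kinase JAK3. IL-2 and IL-15 share the beta chain encoded by Il2rb, and each has its own alpha chain, encoded by Il2ra (CD25) and Il15ra. Dendritic cells and macrophages make IL-15 and hold it on IL-15 receptor alpha at their surface, from where it is presented to neighbouring NK, NKT and memory T cells that carry the beta and gamma chains. IL-4 binds the chain encoded by Il4ra together with either the gamma chain or the chain encoded by Il13ra1, and the pair with Il13ra1 also receives IL-13.

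The IL-15 and IL-2 part of the family was higher in NKT-modulated DC, whereas no chain of the IL-4 and IL-13 receptors passed the test; the difference between these chains was not itself tested. Of the 8 measured genes, each represented by its brightest probe set, 5 rose and 0 fell: Il2rb, Il15ra, Il2ra, Il15 and Il7r. Of these, Il15 and Il7r kept their calls in only 7 of 12 alternative settings each. Of all genes, 5.99% were called higher and 6.88% lower, at a Benjamini-Hochberg adjusted p under 0.05 in limma. The median log2 change of the 8 genes was 0.72, beside -0.04 over all genes. At the level of probe sets, 8 of 18 were higher and 0 lower, beside 5.36% higher and 5.7% lower of all probe sets. Without immature replicate 1, or without either of the NKT-modulated replicates 1 and 2, the counts higher were 3 genes and 4 probe sets each time. Changes are differences of normalized log2(signal + 16), NKT-modulated minus immature, given with their SE for 2 arrays per group; on this scale, changes of dim genes come out smaller than they are.

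**Figure D1:**
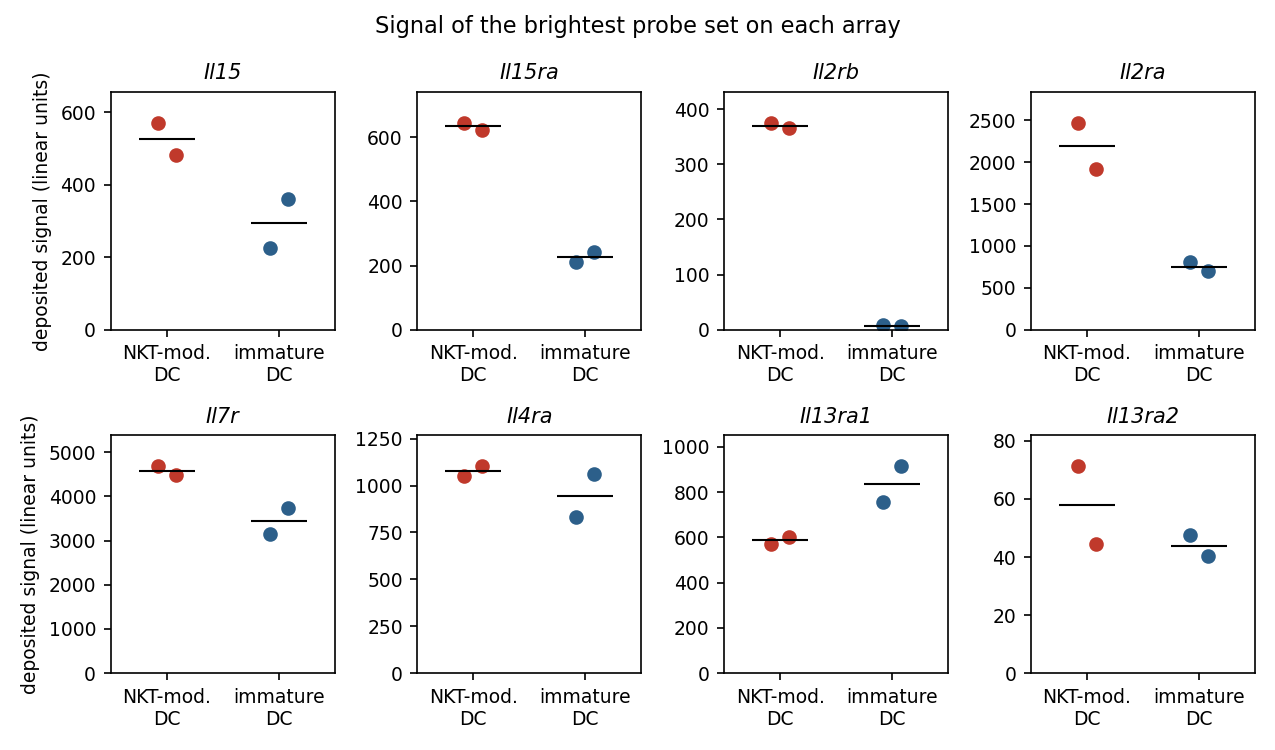
Deposited signal (linear units, 1 axis per gene, each starting at 0) of the brightest probe set of the 8 measured genes, with NKT-modulated DC on the left and immature DC on the right. Points are arrays and bars are the means of 2 arrays; the arrays of both groups lie apart for 6 of the 8 genes (and for 56.6% of all genes), and overlap for Il4ra and Il13ra2.

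The deposited signals of the 2 groups did not overlap for 6 of the 8 genes, beside 56.6% of all genes. After normalization they did not overlap for any of the 8, beside 56.3% of all genes. Separation of the arrays was thus common in these data and is read here only beside the size of each change.

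The promoters of the called receptor genes are shown as the stretch from 250 bases before to 50 bases after each annotated start, since Il2ra and Il15ra rose by a like amount and lie next to each other on chromosome 2. Sequences are from RefSeq on GRCm38.p6, where 7 of the 9 genes matched, with 8 entries; Il2rb and Il15 are not shown. Capitals mark matches, on either strand, to motifs of transcription factors that act downstream of cytokines: the STAT site TTCNNNGAA, the wider STAT6 site TTCNNNNGAA, the IRF core AANNGAAA and the NF-kB consensus.
Il2ra, chr2:11642542-11642841, plus strand: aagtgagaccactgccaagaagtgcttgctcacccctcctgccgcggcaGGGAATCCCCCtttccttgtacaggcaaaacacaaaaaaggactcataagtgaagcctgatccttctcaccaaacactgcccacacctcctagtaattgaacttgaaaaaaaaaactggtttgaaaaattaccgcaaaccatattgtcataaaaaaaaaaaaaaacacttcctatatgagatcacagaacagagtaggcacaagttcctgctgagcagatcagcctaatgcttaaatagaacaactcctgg
Il15ra, entry 1, chr2:11705043-11705342, plus strand: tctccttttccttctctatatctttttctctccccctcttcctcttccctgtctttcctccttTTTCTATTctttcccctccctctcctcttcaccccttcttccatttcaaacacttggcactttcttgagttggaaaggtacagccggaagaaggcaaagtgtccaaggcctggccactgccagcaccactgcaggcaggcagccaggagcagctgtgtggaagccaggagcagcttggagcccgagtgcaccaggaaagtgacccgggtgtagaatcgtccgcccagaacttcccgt
Il15ra, entry 2, chr2:11705462-11705761, plus strand: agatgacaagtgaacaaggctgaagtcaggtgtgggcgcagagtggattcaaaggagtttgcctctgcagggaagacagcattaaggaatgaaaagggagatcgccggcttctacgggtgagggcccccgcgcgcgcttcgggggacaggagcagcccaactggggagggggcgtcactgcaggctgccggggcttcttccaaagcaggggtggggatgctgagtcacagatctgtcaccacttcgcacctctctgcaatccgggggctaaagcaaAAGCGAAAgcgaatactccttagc
Il7r, chr15:9529827-9530126, minus strand: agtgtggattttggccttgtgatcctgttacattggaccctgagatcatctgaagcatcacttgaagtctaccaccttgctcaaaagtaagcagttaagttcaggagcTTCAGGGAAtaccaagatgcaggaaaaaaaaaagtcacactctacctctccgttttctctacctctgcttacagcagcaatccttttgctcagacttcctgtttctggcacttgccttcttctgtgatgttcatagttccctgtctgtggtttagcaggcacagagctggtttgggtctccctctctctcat

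The Il2ra window held 2 overlapping NF-kB matches, on opposite strands, at positions -201 and -200 relative to the annotated start. The second Il15ra window held the IRF core at position 27, inside the transcribed part, and the first held it at -187 on the opposite strand. The Il7r window held the STAT site at -142. Of the 8 windows of the family, 4 held the IRF core, 2 the NF-kB consensus, 1 the STAT site and 0 the STAT6 site. The IRF core lay in both windows of Il15ra, in Il2rg, which was not measured, and in Il13ra2, which was not called. The NF-kB consensus lay in Il2ra and in Il4ra, which was not called. Over all 32851 promoter entries the shares were 23.9% for the IRF core, 4.51% for NF-kB, 8.3% for the STAT site and 6.95% for the STAT6 site. These matches describe letters in a window and not bound sites.

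Il15, the gene of the cytokine itself, had signals of 571.0 and 481.5 in NKT-modulated DC, against 227.0 and 360.8 in immature DC. The groups were apart, but in deposited signal the immature arrays differed by more than the distance from the higher of them to the lower NKT-modulated array. On the normalized log2 scale the values were 9.27 and 9.07 in NKT-modulated DC, against 7.90 and 8.38 in immature DC. There the gap between the groups was the wider. The change was 1.03 ± 0.19 (limma adjusted p = 0.0233), a 2.04-fold rise with a 95% interval of 0.56 to 1.50 on the log2 scale. The call was lost in 5 of 12 alternative settings, among them the removal of immature replicate 1, which left a change of 0.80 (adjusted p = 0.0669). Without NKT-modulated replicate 1 or 2 it was 0.93 and 1.13, with adjusted p = 0.123 and 0.0688, and without immature replicate 2 it was 1.27 and stayed called.

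Il15ra, the chain that presents IL-15, was measured by 2 probe sets, both called. The brighter had signals of 645.0 and 624.2 in NKT-modulated DC, against 210.1 and 241.7 in immature DC. Arrays of a group lay close together and far from the other group. This probe set rose by 1.63 ± 0.13 (limma adjusted p = 0.00103), or 3.09-fold, and stayed called in each of 12 alternatives. The dimmer gave 153.0 and 161.1 in NKT-modulated DC and 76.0 and 85.8 in immature DC, a rise of 0.98 ± 0.21 (adjusted p = 0.0358) that lost its call whenever any 1 of the 4 arrays was left out. They target different deposited transcripts of the gene, and both went the same way.

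Il2rb, the beta chain that signals for both IL-2 and IL-15, had the largest change of the family by its brightest probe set. Its brightest probe set gave 374.8 and 365.5 in NKT-modulated DC, against 7.89 and 6.94 in immature DC. The immature signals lay below the pseudocount of 16, near the bottom of the scale, so the size of the change depends on that choice. It was 4.14 ± 0.23 (limma adjusted p = 3.17e-04), and 5.55 with a pseudocount of 1 or 2.70 with 64. The other probe set, designed to the same deposited transcript, gave 112.5 and 103.5 in NKT-modulated DC and 43.4 and 38.5 in immature DC. It rose by 1.20 ± 0.24 (adjusted p = 0.0285), far less than the first, and lost its call without any 1 of the arrays. Averaging both gave a change of 2.67, still called. Both probe sets place every NKT-modulated array above every immature array, though the deposited signals of the 2 groups lay apart for 56.6% of all genes.

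Il2ra, the alpha chain that gives the IL-2 receptor its high affinity and is also carried by activated T cells and by some mature DC, was called by both of its probe sets. The brighter had signals of 2470 and 1920 in NKT-modulated DC, against 805.5 and 700.2 in immature DC. The change was 1.62 ± 0.16 (limma adjusted p = 0.00267), or 3.07-fold. The other had 1635 and 1194 in NKT-modulated DC and 238.0 and 335.4 in immature DC, with a change of 2.41 ± 0.18 (adjusted p = 9.08e-04). Neither lost its call in any alternative run. Unlike Il2rb, Il2ra had clear signal in the immature arrays as well.

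**Figure D2:**
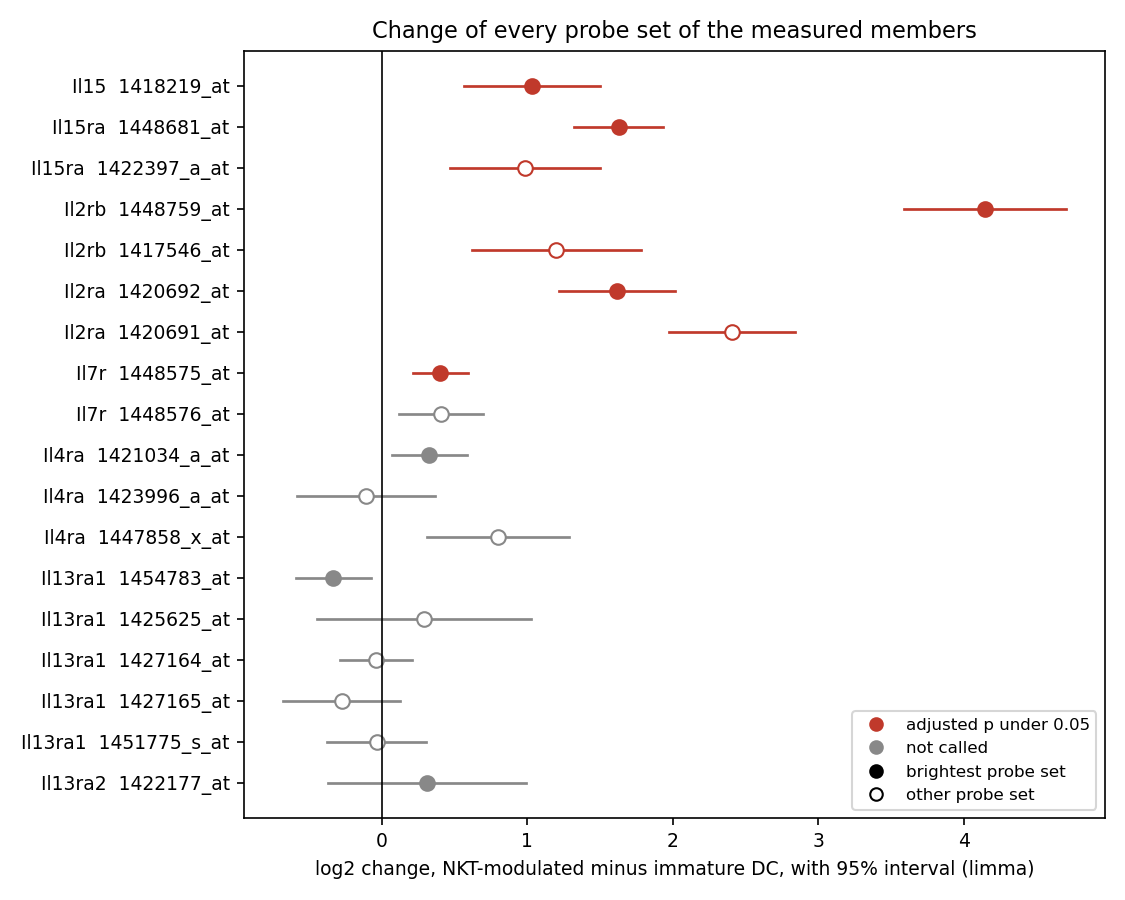
Log2 change (NKT-modulated minus immature DC) of all 18 probe sets of the 8 measured genes, with limma's 95% interval. Red probe sets passed an adjusted p of 0.05 and filled points are the brightest of each gene; both probe sets of Il15ra, Il2rb and Il2ra passed, and none of the 9 probe sets of Il4ra, Il13ra1 and Il13ra2 did.

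Il7r, the private chain of the IL-7 receptor that also pairs with Crlf2 to receive TSLP, was bright in both groups. Its brighter probe set had 4674 and 4483 in NKT-modulated DC, against 3144 and 3740 in immature DC. The change was small, 0.40 ± 0.08 (limma adjusted p = 0.0266), or 1.32-fold. The second gave 1230 and 1303 in NKT-modulated DC and 888.4 and 1198 in immature DC, with a change of 0.41 ± 0.12 that did not pass (adjusted p = 0.0883). The call of the brighter was lost in 5 of 12 alternatives, including removal of immature replicate 1 (adjusted p = 0.0898) or of NKT-modulated replicate 1 (0.133) or 2 (0.132).

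Il4ra, the chain shared by the receptors of IL-4 and IL-13, had signals of 1052 and 1102 in NKT-modulated DC, against 833.2 and 1061 in immature DC. The groups overlapped, and the change of 0.33 ± 0.11 did not pass (limma adjusted p = 0.115; 95% interval 0.07 to 0.58). Its 3 probe sets disagreed in sign. The dimmest, of a kind whose probes may also match other transcripts, gave 167.3 and 157.1 in NKT-modulated DC and 97.3 and 100.01 in immature DC; its change was 0.80 ± 0.20 (adjusted p = 0.0576), and it passed in 4 of 11 alternatives, where its adjusted p ranged from 0.0178 to 0.208. The other gave 159.9 and 196.9 in NKT-modulated DC and 203.6 and 255.3 in immature DC, with a change of -0.11 ± 0.20.

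Il13ra1, which completes the IL-13 receptor on myeloid cells, was the one gene of the family whose brightest probe set was lower. It had 573.0 and 601.1 in NKT-modulated DC, against 758.1 and 913.6 in immature DC. The groups did not overlap, but the change of -0.33 ± 0.11 did not pass (limma adjusted p = 0.108; 95% interval -0.59 to -0.08). None of its 5 probe sets passed, with changes between -0.33 and 0.29. Il13ra2, a chain with a short cytoplasmic tail that is known as a decoy for IL-13, was dim, at 71.2 and 44.4 in NKT-modulated DC and 47.6 and 40.3 in immature DC. Its groups overlapped, with a change of 0.31 ± 0.28 (adjusted p = 0.572; 95% interval -0.37 to 0.99).

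Il2ra and Il15ra are consecutive protein-coding genes in the RefSeq order of chromosome 2. Their changes of 1.62 and 1.63 were set beside those of their neighbours, which were chosen by position after the values of the pair were known. Rbm17, a splicing factor gene on the Il2ra side, had a change of 0.04 ± 0.08. Pfkfb3, a regulator of glycolysis, had -0.18 ± 0.17, and Prkcq, a kinase of T cell receptor signalling, had 0.36 ± 0.26. Fbh1, a DNA helicase gene on the Il15ra side, had -0.19 ± 0.11. None of these 4 neighbours passed, their limma adjusted p lying between 0.368 and 0.846, and Gm46731 and Ankrd16 beyond Fbh1 were not analysed here.

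Several transcripts of T cells were higher in the same arrays. Of 18 T and NKT cell markers, 15 were measured, of which 8 rose, 0 fell and 7 did not pass. The summed signal of the 15 was 4433 to 6206 in NKT-modulated DC, against 1130 to 1151 in immature DC. Among those not passing, Zap70 had 622.4 and 479.3 in NKT-modulated DC, against 568.2 and 469.4 in immature DC. Zbtb16 had 124.9 and 72.7 in NKT-modulated DC, against 94.2 and 95.4 in immature DC. Cd4, Trat1 and Cd2 stayed under a signal of 50 on every array, and Cd3g, a chain of the T cell receptor complex, had 1401 and 1046 in NKT-modulated DC and 19.0 and 15.4 in immature DC. Activated T and NKT cells carry Il2ra and Il2rb, and the part of such cells in the rise of these genes was not tested. In bulk RNA, more cells of a type and more RNA per cell cannot be told apart.

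The 2 NKT-modulated arrays differed in the markers called higher. The 8 called markers had 1.27 to 1.97 times more signal in replicate 1 than in replicate 2 (median 1.46), while the median ratio over all probe sets was 1.04. The same ratio was 1.29 and 1.37 for the probe sets of Il2ra and 1.19 for Il15. It was 1.03 and 1.09 for Il2rb, 1.03 and 0.95 for Il15ra, and 1.04 and 0.94 for Il7r. Among genes that did not pass, it was 1.60 for the dim Il13ra2, 0.81 to 1.06 for the probe sets of Il4ra and 0.85 to 1.04 for those of Il13ra1. Each ratio rests on a single pair of arrays and carries no test. Of the markers that did not pass, Cd2 and Cd5 had less signal in NKT-modulated replicate 1 than 2. Zap70, Zbtb16, Cd6, Cd4 and Trat1 had more. Between immature replicates 1 and 2, the ratio ran from 0.463 (Cd28) to 3.81 (Cd247) over the 8 called markers, several of them dim there. It was 0.629 for Il15 and 0.709 for the dimmer Il2ra probe set, while the brighter was higher in replicate 1. Whether any gene of the family followed the markers was not tested.

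Of 8 NK cell markers, 7 were measured, of which 2 rose and 1 fell, with a summed signal of 563 to 634 in NKT-modulated DC and 822 to 876 in immature DC. The granule gene Nkg7 rose, at 219.0 and 189.3 in NKT-modulated DC against 30.7 and 26.0 in immature DC, as did Gzma, at 124.3 and 109.1 against 32.7 and 22.5. Klrd1, a receptor chain of NK cells, fell, at 134.2 and 160.5 in NKT-modulated DC against 638.5 and 716.6 in immature DC. It made up most of the immature NK cell sum, so the lower sum in NKT-modulated DC rests on Klrd1 alone. Ncr1, a receptor gene of NK cells, gave 4.26 and 4.06 in NKT-modulated DC, against 3.62 and 3.46 in immature DC. Eomes and Klra8 also stayed under 50 on every array. Of 12 DC markers, 11 were measured, of which 3 rose (Batf3, Cd83 and Irf8) and 0 fell, and their summed signal was 64579 to 70902 in NKT-modulated DC and 55301 to 56673 in immature DC. Itgax, which encodes CD11c, had 5253 and 4643 in NKT-modulated DC and 5442 and 5537 in immature DC, so DC transcripts were abundant in both groups. Macrophage markers summed to 22932 to 24021 in NKT-modulated DC, against 22874 to 23690 in immature DC, with 1 of 6 higher and 2 lower. Counts of other lineages were 2 higher of 5 measured B cell markers, 1 higher and 1 lower of 6 mast cell and basophil markers and 1 higher of 5 neutrophil markers. Their summed signals were 1396 to 1454, 695 to 822 and 462 to 590 in NKT-modulated DC, against 584 to 668, 720 to 840 and 326 to 358 in immature DC. Blnk made up most of the B cell sum, at 1044 and 1135 in NKT-modulated DC against 471.2 and 561.4 in immature DC. Of the mast cell and basophil markers, Hdc rose, at 362.3 and 321.0 against 19.6 and 22.4. Kit fell, at 374.5 and 262.7 against 625.7 and 736.0, and the other 4 stayed under 50 on every array.

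The cytokines that these receptors bind were mostly higher. Of 7 measured partner cytokines, 6 rose and 0 fell, and the median change was 3.33. Of these, Tslp was dim, at 26.1 and 15.3 in NKT-modulated DC against 0.85 and 1.16 in immature DC, and the count was 5 whenever 1 array was left out, with a pseudocount of 64, without the intensity trend and with dim probe sets left out. Il13, a ligand of the receptors whose chains did not pass, had 7253 and 6658 in NKT-modulated DC, against 5.78 and 3.85 in immature DC, below the pseudocount, so that its fitted change of 8.36 ± 0.13 depends on that choice. Il4, the other ligand of these receptors, rose by 7.22 ± 0.18. Il9 had signals of 413.1 and 347.4 in NKT-modulated DC, against 38.2 and 19.97 in immature DC, and rose by 3.26 ± 0.26. Il21 had 354.8 and 227.9 in NKT-modulated DC, against 17.0 and 15.6 in immature DC, and rose by 3.33 ± 0.28 (limma adjusted p = 0.00142).

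Il2, named for its place as ligand of Il2ra and Il2rb, had 491.4 and 327.0 in NKT-modulated DC, against 25.2 and 8.69 in immature DC, and rose by 3.80 ± 0.33. T cells can make the cytokines encoded by Il13, Il4, Il9, Il21 and Il2, and 8 of the 15 measured T and NKT cell markers also rose. Which cells these transcripts came from was not tested. Il7, a cytokine of stromal cells, stayed dim and did not pass, at 35.1 and 28.2 in NKT-modulated DC and 30.9 and 3.86 in immature DC. Of the partner receptor chains 0 of 3 passed, and their median change was 0.09. Il21r, the IL-21 receptor, had a change of 0.39 ± 0.13, Crlf2, the TSLP receptor chain, had -0.05 ± 0.08, and Il9r, at signals under 6 on every array, had 0.09 ± 0.20.

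**Figure D3:**
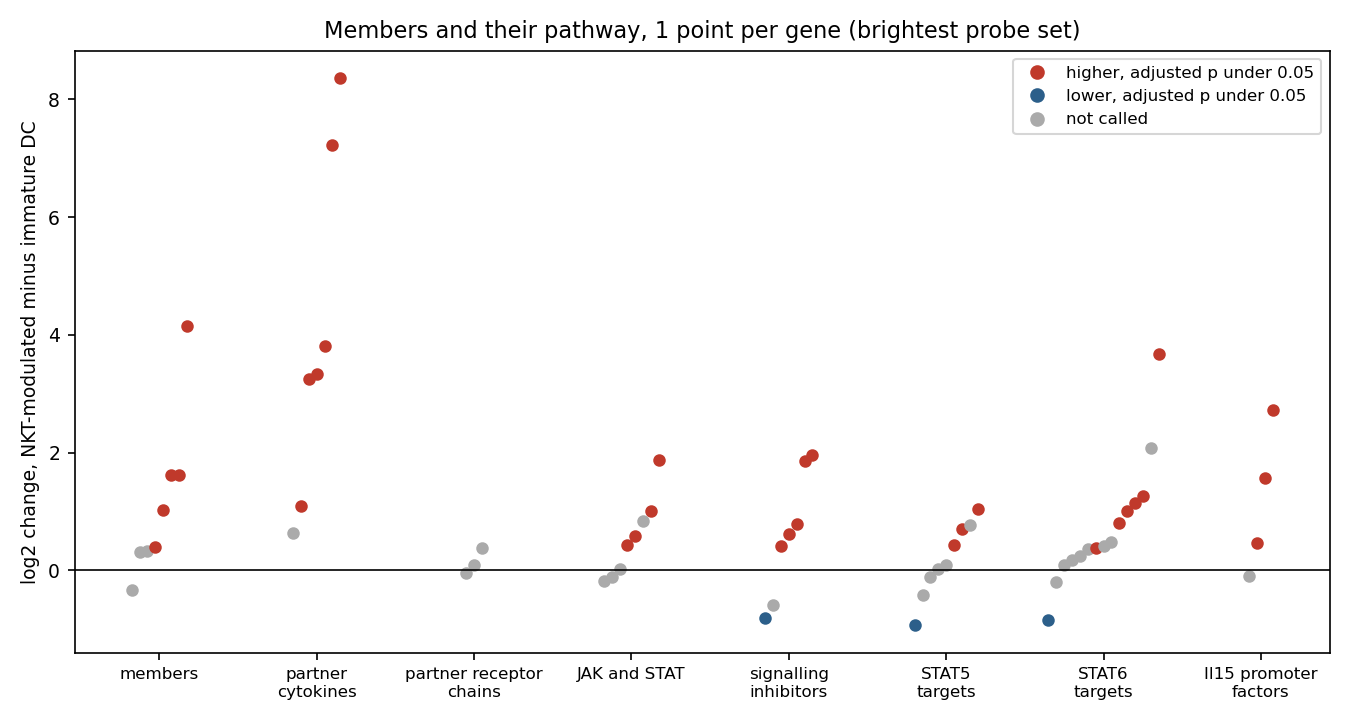
Log2 change (NKT-modulated minus immature DC) of the 8 measured genes of the family and of 7 pathway lists, 1 point per gene. Red and blue points passed an adjusted p of 0.05 as higher or lower; the partner cytokines reach 8.36 (Il13, whose immature signals lay below the pseudocount), whereas all 3 partner receptor chains lie within 0.39 of 0.

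Of 8 JAK kinase and STAT factor genes, 4 rose and 0 fell; their median change was 0.51. Stat5a, a main signal carrier of IL-2, IL-7 and IL-15, had 2528 and 2012 in NKT-modulated DC, against 633.5 and 670.3 in immature DC, and rose by 1.88 ± 0.12 (limma adjusted p = 5.47e-04). Its close relative Stat5b rose by 0.58 ± 0.13, Stat3, which serves IL-21 among others, by 1.01 ± 0.10 and Jak2 by 0.44 ± 0.07. Jak3 and Stat6 are given for their place in the pathway. Jak3, the kinase bound by the gamma chain, had 261.9 and 196.0 in NKT-modulated DC and 126.0 and 152.3 in immature DC, and narrowly missed the threshold with a change of 0.85 ± 0.20 (adjusted p = 0.0506). Stat6, which carries IL-4 and IL-13 signals, had a change of -0.18 ± 0.08 (adjusted p = 0.256). The count of 4 higher became 2 without immature replicate 1, without either NKT-modulated replicate, and without the intensity trend.

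Of 7 inhibitors of cytokine signalling, 5 rose and 1 fell; their median change was 0.61. Socs3 and Socs1, feedback inhibitors of JAK kinases, rose by 1.86 ± 0.08 and 1.96 ± 0.18, and Socs2, another gene of that family, by 0.78 ± 0.07. Ptpn6, the phosphatase SHP-1, fell by 0.80 ± 0.08. Without NKT-modulated replicate 1 the count higher was 3, and without the intensity trend 2 were higher and 0 lower. STAT5 target genes went both ways, with 3 higher and 1 lower of 9 measured. Bcl2l1, a survival factor, rose by 1.05 ± 0.12, Ccnd2 and Pim1, a cyclin and a kinase of growth, by 0.70 ± 0.07 and 0.43 ± 0.08, while the cyclin gene Ccnd3 fell by 0.93 ± 0.12. Their median was 0.09, and without the intensity trend 1 was higher and 0 lower.

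Of 15 STAT6 target genes, 6 rose, 1 fell and 8 did not pass, with a median change of 0.42. Ccl24, an eosinophil attractant, had 1985 and 1560 in NKT-modulated DC, against 129.1 and 142.1 in immature DC, and rose by 3.67 ± 0.14. Pdcd1lg2, which encodes PD-L2, rose by 1.26 ± 0.10, Irf4 by 1.14 ± 0.08 and the transglutaminase gene Tgm2 by 1.02 ± 0.08. The fall, of the lectin gene Clec10a (named after its value was seen), was not called without immature replicate 1 or 2, without NKT-modulated replicate 1 or without the intensity trend.

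Of 4 measured factors known to bind the Il15 promoter, 3 rose and 0 fell, with a median of 1.02. Irf1, an interferon-induced factor, had 6973 and 6777 in NKT-modulated DC, against 1088 and 1035 in immature DC, and rose by 2.72 ± 0.10 (limma adjusted p = 9.17e-05). The NF-kB subunit genes Rel and Rela rose by 1.57 ± 0.13 and 0.46 ± 0.10.

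Genes with the most similar pattern over the 4 arrays were found for each called member by the Euclidean distance of normalized log2 values centred on each gene's mean. The nearest to Il2ra were Tnfsf9, which encodes a ligand of the costimulatory receptor 4-1BB, at a distance of 0.081, and the granzyme gene Gzma at 0.168. Il2rb lay nearest to the chemokine gene Cxcl10 at 0.191 and the T cell chromatin factor gene Satb1 at 0.292. Il15ra lay nearest to Clec4e, a receptor of myeloid cells for mycobacterial glycolipids, at 0.054 and Slamf8 at 0.059. Il15 lay nearest to the transcription factor genes Pax3 at 0.058 and Zeb1 at 0.087, and Il7r to the chaperone gene Dnajb9 at 0.018 and Med15 at 0.028. With 2 groups of 2 arrays, many genes lie close to any pattern, and the distances describe these arrays only.

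**Figure D4:**
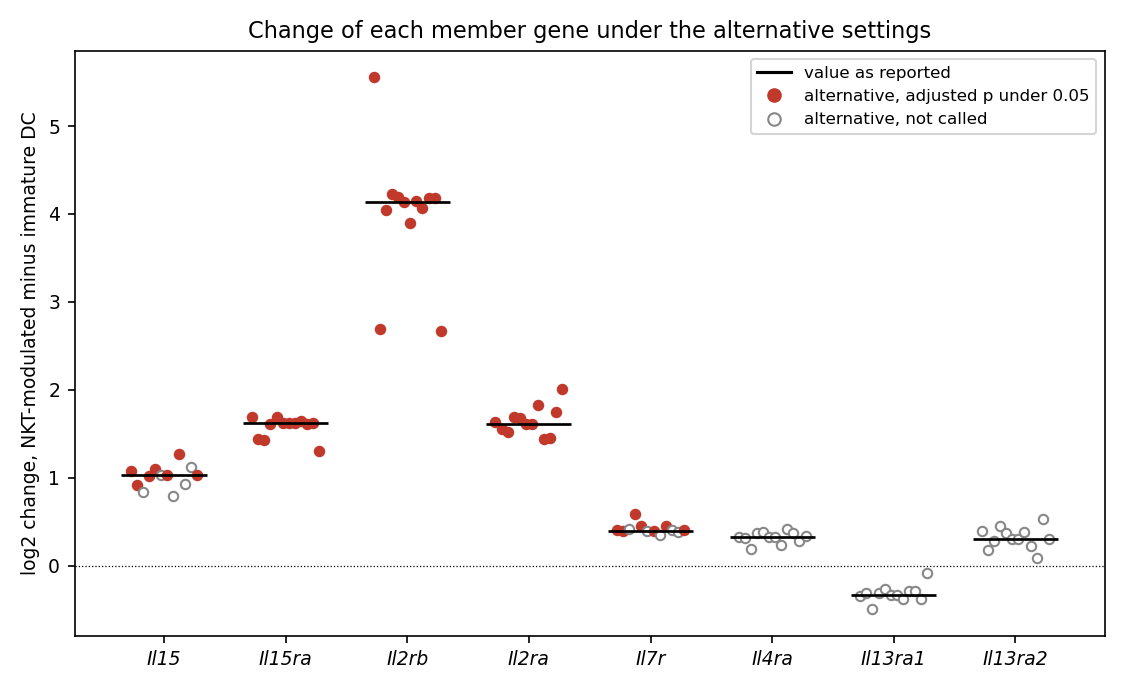
Log2 change of each measured gene of the family in the reported setting (black bar) and in 12 alternative settings (points; filled red where the adjusted p was under 0.05). Il15ra, Il2rb and Il2ra are red throughout, Il15 and Il7r in 7 of 12, and Il4ra, Il13ra1 and Il13ra2 in none.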

How the data were processed

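The deposited values are intensities on a linear scale, 1 summary signal per probe set and array; the authors analysed the scanned arrays with GCOS per the submitters' processing notes, while the version, summary algorithm and scaling target are not given in these sources. The table has 22690 rows; 64 control probe sets were left out and the other 22626 tested without a filter. A log2(signal + 16) transform was followed by quantile normalization, since quartiles differed by up to 0.27 between arrays. The comparison used limma 3.58.1 (R 4.3.3), with eBayes moderation along an intensity trend and two-sided tests (2 residual and 4.13 prior degrees of freedom), with Benjamini-Hochberg adjustment over all probe sets and a threshold of 0.05. The steps were tested on data simulated from the fitted variance model, which cannot show whether its assumptions hold for these arrays. Correlations of log2 signals were 0.987 and 0.985 within groups and 0.960 to 0.965 between them, and no arrays were identical. The number of arrays limits the precision, and no detection calls were used.

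Probe sets were named through the platform annotation (20380 with 1 symbol, 691 with several, 1555 unnamed here), and 20351 symbols were updated by gene ID through RefSeq GRCm38.p6. A gene was represented by its brightest probe set. The members and lists were chosen with earlier results of these data known. The text names all measured members and up to 4 called genes of each pathway list by smallest p. It also names every gene of a list of 3, and the 2 genes nearest in pattern to each called member. Other genes are said to be chosen otherwise, apart from cell type markers and the dim partner cytokine genes Tslp and Il7. Alternatives were other pseudocounts, normalizations and variance models, a filter on dim probe sets, the mean of a gene's probe sets, and leaving out each array.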

Additional observations from a re-analysis of the deposited data

How the results depend on the processing

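The counts of genes of the family called lower were 0 in every alternative, and Il2ra, Il2rb and Il15ra stayed higher in all 12. The 5 genes called higher became 3 without further normalization and without the intensity trend, and 3 to 5 when 1 array was left out; Il15 and Il7r were those lost. The 8 probe sets called higher became 5 without further normalization and 4 to 6 with 1 array left out. Over all probe sets, the 1212 higher and 1289 lower became 625 and 420 without the intensity trend, and 624 to 822 and 446 to 625 with 1 array left out, where a lone array is assumed to vary like the other group. Of all calls, 48.5% were higher, against 36.6% without further normalization, 56.2% after cyclic loess and 58.3% with equal array medians, which moved the median of all probe sets by 0.109. Some dimmer probe sets that did not pass changed sign: the Il13ra1 probe sets with reported changes of -0.0388 and -0.0353 had 0.0223 and 0.0288 after cyclic loess, and with 1 array left out the second ranged from -0.111 to 0.0422 and the Il4ra probe set reported at -0.111 from -0.280 to 0.0555. The causes were not tested. No paired analysis was possible because the labels number the arrays differently in each group and tie no NKT-modulated array to an immature one. Signals near the pseudocount limit the size of the Il2rb change.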
